A study of Mus musculus with 4 samples.

Results

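Integrins are the receptors by which vessel cells hold on to the extracellular matrix. Each is a pair of an α and a β chain, the α chain largely setting which matrix protein is bound and the β chain linking the receptor, through talin and kindlin, to the actin cytoskeleton. In small vessels, endothelial cells and the pericytes wrapped around them share a basement membrane of collagen IV, laminins and nidogen, and both attach to it through integrins that contain β1. The 10 genes described here are *Itga1* and 9 further subunit genes, chosen by their names and with their levels in the 2 cell classes already known, so differences between the classes are given for them as a description without a test. They are 10 of 26 integrin subunit genes listed and 10 of 32285 mouse genes measured.

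The cells came from hyaloid vessels, the transient vessels of the vitreous, at postnatal day 6 (P6). *Gpr124* fl/fl pups carried both floxed alleles, were Cre-negative and served as controls. *Gpr124* ∆EC/∆EC pups were their littermates with the same floxed alleles and the VECad-Cre-ER T2 transgene, a tamoxifen-inducible Cre under the vascular endothelial cadherin promoter, and both genotypes received tamoxifen. Cre acts in endothelial cells, so pericytes were not themselves a target of the deletion. Vitreous bodies were pooled by genotype into 1 suspension each, and each genotype counts as 1 sample. Plates had 384 wells, and sorting on CD31 or PDGFRB staining aimed at 1 viable cell in each. Each suspension filled 2 SORT-seq plates. Library names in a supplementary figure were read as a CD31 gate for endothelial cells in the first and a PDGFRB gate for pericytes in the other. The second *Gpr124* ∆EC/∆EC plate was read as also holding some CD31-gate cells, in wells that could not be identified. These gates are not recorded with the counts, and the paper's methods name only sorting on either stain. Mouse genes held 108059 and 128082 UMIs (unique molecular identifiers, 1 per captured transcript) in the *Gpr124* fl/fl plates and 51972 and 174645 in the *Gpr124* ∆EC/∆EC plates.

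Wells were used if they held 1000 to 8000 UMIs after the plates were scaled to 1 median and if under 10% of the UMIs were mitochondrial. A well with *Cldn5*, a tight junction gene, and no *Pdgfrb* was called endothelial, and one with *Pdgfrb*, the PDGF receptor of mural cells, and no *Cldn5* a pericyte. This left 11 endothelial cells and 21 pericytes. The pericytes were 9 of *Gpr124* fl/fl and 12 of *Gpr124* ∆EC/∆EC, where the paper kept 10 of each. Why the 2 sets of pericytes differ was not tested. The first *Gpr124* fl/fl plate gave 2 endothelial cells and 6 pericytes, which goes against the CD31 gate read for it. The second gave 3 of each, although a PDGFRB gate was read for it. The first *Gpr124* ∆EC/∆EC plate gave 4 endothelial cells and no pericyte, and the second gave 2 endothelial cells and 12 pericytes. All *Gpr124* ∆EC/∆EC pericytes thus came from 1 plate, and in pericytes genotype and plate cannot be told apart. The plates use the same 384 well barcodes. Of the 32 cells, 10 (31.2%) had a barcode that held at least 1000 scaled UMIs in another plate as well. The share was 9.70% of all 1536 wells and 32.8% of the 58 wells with at least 1000 scaled UMIs. Whether reads passed between plates was not tested, and values without these 10 cells, an alternative chosen after seeing the data, are given below.

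Other markers fitted the 2 class names. The 14 further endothelial markers summed to 109 UMIs per 10000 in endothelial cells and 7.58 in pericytes, and 13 of them were detected in endothelial cells, *Flt1* being the most abundant. The 10 further pericyte markers summed to 161 in pericytes, led by *Rgs5*, and to 14.8 in endothelial cells. The 2 endothelial cells of the first *Gpr124* fl/fl plate held 22 of those 46 endothelial UMIs (35.3 per 10000), and those of the second *Gpr124* fl/fl plate 3 (3.35). *Adgra2*, the gene of GPR124, had 3 UMIs in the 5 *Gpr124* fl/fl endothelial cells and 0 in the 6 *Gpr124* ∆EC/∆EC endothelial cells, where 0 has an upper Poisson limit of 2.33 per 10000. Both groups lie at or under the floor of 3 UMIs over a group, so these counts do not check the labels, and SORT-seq reads the 3′ end of a transcript, which need not lie in the deleted part.

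*Itga1* (ENSMUSG00000042284; GRCm38 chromosome 13, 114953096 to 115101964, minus strand) encodes α1, which pairs with β1 to bind collagen, collagen IV in particular. It was the most abundant of the 10 in pericytes and stood at rank 19 of the 9617 genes detected in them. Levels are given as UMIs per 10000 UMIs of the cells pooled, and because each transcript is tagged once at its 3′ end they need no scaling to transcript length. In pericytes the *Gpr124* fl/fl plates reached 34.4 and 37.6 and the *Gpr124* ∆EC/∆EC plate 28.7. In endothelial cells the *Gpr124* fl/fl plates held 3.21 and 3.35, against 1.69 and 1.01 for *Gpr124* ∆EC/∆EC. Every pericyte sum lay above every endothelial sum, a separation that was known when the gene was chosen.

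Pooled over plates, pericytes held 254 *Itga1* UMIs, or 31.6 per 10000 (95% Poisson interval 27.8 to 35.7), and endothelial cells 7, or 2.25 (0.906 to 4.65). The ratio was 14.0 (exact conditional interval 6.70 to 35.2). Within the plates that held both classes it was 10.7 and 11.2 for *Gpr124* fl/fl and 28.6 for *Gpr124* ∆EC/∆EC, the last resting on 1 endothelial UMI. The intervals hold the error of counting alone and leave out how far pups, suspensions and plates vary.

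*Itga1* was found in 21 of 21 pericytes (exact binomial interval of the share 83.9% to 100%). That interval takes cells as independent and leaves out how far suspensions and plates vary. Single pericytes ranged from 4.72 to 76.6 per 10000 with a median of 32.5, and from 2 to 24 UMIs. It had at least 1 UMI in 6 of 11 endothelial cells, none of which held more than 2. The median cell held 3750 UMIs in pericytes and 3020 in endothelial cells. With each cell thinned to 1000 UMIs, which all 32 cells reached, 93.2% of pericytes and 25.9% of endothelial cells kept an *Itga1* UMI.

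The pooled endothelial level was not above that of wells with few UMIs. The 1326 wells with fewer than 300 scaled UMIs held 4.90 *Itga1* UMIs per 10000, and the endothelial cells reached 0.460 times that level (0.179 to 0.991). By plate those wells held 3.85 and 3.89 for *Gpr124* fl/fl and 1.20 and 9.21 for *Gpr124* ∆EC/∆EC, so the pooled value rests much on the last plate, and in the first *Gpr124* ∆EC/∆EC plate the endothelial cells (1.69, 1 UMI) lay above the wells. Those wells also held pericyte markers at 40.4 per 10000, against 14.8 in endothelial cells, so they are not a measured background for endothelial cells. Whether the 7 endothelial *Itga1* UMIs came from the cells themselves was not tested. Pericytes stood 6.44 times above those wells (4.99 to 8.37).

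**Figure D1:**
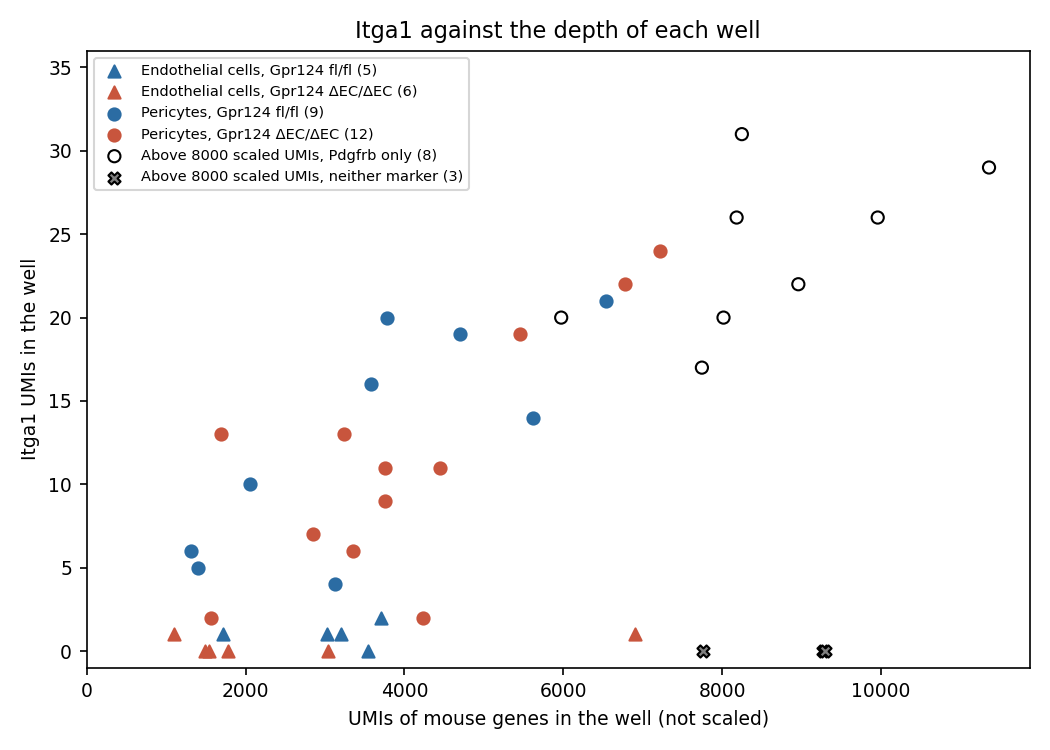
*Itga1* UMIs (vertical axis) against all mouse gene UMIs (horizontal axis, not scaled) in each retained endothelial cell (triangles) and pericyte (filled circles), coloured by genotype, and in wells above 8000 scaled UMIs with *Pdgfrb* alone (open circles) or with neither marker (crosses). Pericytes held 2 to 24 UMIs, endothelial cells 0 to 2, and the 3 deep wells with neither marker 0.

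Wells that the depth limits left out were looked at apart. Above 8000 UMIs there were 8 wells with *Pdgfrb* and no *Cldn5*, and all 8 held *Itga1*, at 27.9 per 10000, which is 0.884 times the retained pericytes (0.729 to 1.07). A further 3 wells above 8000 UMIs had neither marker and held no *Itga1* UMI among 26322 UMIs, and 2 of these 3 held macrophage markers, at a sum of 88.1 per 10000 over the 3 wells. At the upper limit, the deepest retained pericyte had 33.2 *Itga1* UMIs per 10000 at 7770 scaled UMIs, and the next pericyte outside had 31.8 at 8185. At the lower limit, a pericyte at 996 scaled UMIs, just outside, had 1 *Itga1* UMI (11.2 per 10000), and the shallowest retained pericyte, at 1458, had 6 (45.8). Between 300 and 1000 UMIs, 24 *Pdgfrb* wells held 14.2 per 10000 and 4 *Cldn5* wells 4.78, from 15 UMIs and 1 UMI. Those *Pdgfrb* wells lay below the retained pericytes in *Itga1* while their pericyte markers summed to 186 per 10000. Their macrophage markers summed to 17.0, against 2.11 in retained pericytes, and why *Itga1* was lower was not tested.

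The annotation places *Pelo*, a gene of ribosome rescue, inside *Itga1* on the same strand. *Pelo* had 16 UMIs in the retained cells against 261 for *Itga1*, and UMIs shared between such overlapping genes would be uncertain.

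The promoters of *Itga1*, *Itgb1* and *Itgb5* are shown as those of the most abundant α chain in pericytes, the most abundant β chain, and a β chain counted in retained pericytes but in no retained endothelial cell. RefSeq promoters (GRCm38.p6, 250 bases before to 50 after the start of transcription) matched 8 of the 10 genes. Capitals mark the GC box, GGGCGG on either strand, which 35.9% of 32544 distinct promoters hold. *Itga1* (chr13:115101915-115102214, minus strand) has 0, *Itgb1* (chr8:128685404-128685703, plus strand) has 1 and *Itgb5* (chr16:33829415-33829714, plus strand) has 3. Neither the TATA box TATAAA, in 13.6% of promoters, nor the CArG box bound by serum response factor, in 1.64%, occurs in any of these 3 windows. A match is a string of letters and not a measured site.
*Itga1*: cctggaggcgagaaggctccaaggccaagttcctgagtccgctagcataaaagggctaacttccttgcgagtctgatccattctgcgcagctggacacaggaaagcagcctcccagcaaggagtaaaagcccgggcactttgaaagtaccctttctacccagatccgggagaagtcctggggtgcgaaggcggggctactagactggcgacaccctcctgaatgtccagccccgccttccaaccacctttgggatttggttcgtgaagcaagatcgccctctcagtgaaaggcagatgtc
*Itgb1*: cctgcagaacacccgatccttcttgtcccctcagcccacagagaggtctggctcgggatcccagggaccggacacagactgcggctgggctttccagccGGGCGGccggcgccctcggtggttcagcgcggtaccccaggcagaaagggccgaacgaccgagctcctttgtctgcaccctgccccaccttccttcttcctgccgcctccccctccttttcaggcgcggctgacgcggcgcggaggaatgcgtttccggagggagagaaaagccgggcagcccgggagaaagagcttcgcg
*Itgb5*: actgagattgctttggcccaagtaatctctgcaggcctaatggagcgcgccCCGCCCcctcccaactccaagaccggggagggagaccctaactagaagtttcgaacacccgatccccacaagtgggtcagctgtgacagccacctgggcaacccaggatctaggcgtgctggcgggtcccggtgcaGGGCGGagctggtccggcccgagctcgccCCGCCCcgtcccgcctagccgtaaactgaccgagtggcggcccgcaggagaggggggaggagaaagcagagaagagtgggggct

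The laminin receptors α6 and α7 differed in where they were counted. *Itga6* (chromosome 2, 71745616 to 71858416, plus strand) encodes a chain used by endothelial cells for laminin. It was the only one of the 10 with more than 3 UMIs in 1 of the classes and a higher pooled endothelial level, 12 UMIs in endothelial cells (3.87 per 10000) against 10 in pericytes (1.24). Pericytes held 0.322 times the endothelial level (0.124 to 0.812), a log2 ratio of -1.64 that ranged from -2.58 to -1.09 over the alternative analyses. By plate the endothelial levels were 6.43, 2.23, 5.07 and 3.02 per 10000 and the pericyte levels 0.555, 2.13 and 1.24, so the lowest endothelial plate and the highest pericyte plate lay close together. The endothelial level was 3.99 times that of wells under 300 UMIs (1.72 to 8.99), and the pericyte level 1.28 times (0.520 to 3.01).

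*Itga7* (chromosome 10, 128933818 to 128958282, plus strand), the laminin receptor chain of muscle and mural cells, had 33 UMIs in 13 of 21 pericytes (4.10 per 10000, 2.82 to 5.76) and 1 UMI in endothelial cells. The *Gpr124* fl/fl plates had pericyte levels of 1.67 and 2.84, the *Gpr124* ∆EC/∆EC plate 5.38. Pooled over plates *Itga7* was the second most abundant α chain in pericytes, though the intervals of *Itga7*, *Itgav* and *Itga4* overlap. This rank rests on the *Gpr124* ∆EC/∆EC plate. In *Gpr124* fl/fl pericytes *Itga7* (2.18 per 10000) lay below *Itgav* (4.36) and *Itga4* (3.11). Without the 10 cells of shared barcodes *Itga7* (2.81) lay below *Itgav* (4.49).

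Of the subunits that bind the RGD motif of fibronectin and vitronectin, αv and β5 had more than 3 UMIs in a class, and both in pericytes. *Itgav* (chromosome 2, 83724397 to 83806916, plus strand) had 29 UMIs in pericytes (3.60 per 10000, 2.41 to 5.18) and 2 in a single endothelial cell. By plate the pericyte levels were 3.89, 4.97 and 3.10, and in the second *Gpr124* ∆EC/∆EC plate, where that endothelial cell lay, the ratio of pericytes to endothelial cells was 1.54 (0.359 to 13.9). The 3 deep wells with neither marker held 9 *Itgav* UMIs (3.42 per 10000), all in 1 well. *Itgb5* (chromosome 16, 33829665 to 33949338, plus strand), a partner of αv in the vitronectin receptor, had 27 UMIs in 10 of 21 pericytes (3.36, 2.21 to 4.88) and none in the retained endothelial cells. It was also counted outside pericytes, with 3 UMIs in a deep well with neither marker and 6 in such wells between 300 and 1000 UMIs. The pericyte level of *Itgb5* was 3.47 times a floor of 3 UMIs over the endothelial group. For the observed 27 against 0 UMIs, the exact conditional lower limit of the ratio was 2.64. The pericyte count was uneven, with 1 UMI in the 6 pericytes of the first *Gpr124* fl/fl plate and 8 in the 3 pericytes of the second, 6 of them in 1 cell. *Itga5* (chromosome 15, 103344286 to 103366763, minus strand), the fibronectin receptor chain, had 2 UMIs in endothelial cells and 1 in pericytes, which is no detectable difference. *Itga8* (chromosome 2, 12106632 to 12301922, minus strand), a mesenchymal RGD receptor chain that binds nephronectin, had no UMI in any retained cell, which has an upper Poisson limit of 0.458 per 10000 in pericytes, and 1 UMI among all wells of the plates.

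The related chains α4 and α9, which bind VCAM1, fibronectin variants and tenascin, differed in abundance. *Itga4* (chromosome 2, 79255426 to 79333123, plus strand) had 26 UMIs in 13 of 21 pericytes (3.23 per 10000, 2.11 to 4.73) and 1 in endothelial cells. *Itga9* (chromosome 9, 118606690 to 118901003, plus strand) had 3 UMIs in 2 of 11 endothelial cells and none in 21 pericytes. The pericyte level has an upper Poisson limit of 0.458 per 10000, and both classes lie at or under the floor. *Itga4* and some other subunits differed between retained pericytes and deeper wells. The 8 *Pdgfrb* wells above 8000 UMIs held 7.31 per 10000, 2.26 times the retained pericytes (1.38 to 3.78), but 3 of the 8 wells, with 9, 14 and 16, held most of the 50 UMIs, and the other 5 held 0 to 4 each. *Itgb1* was also higher there, at 1.39 times, with an interval that lies just above 1 at its lower end. *Itga7* and *Itgb5* went the other way, at 0.428 (0.201 to 0.849) and 0.479 times (0.214 to 0.998), and the pericyte marker sum was lower in these wells too, at 91.0 per 10000 against 161. These ratios are a description, since the wells were set apart by depth alone, and whether they hold more than 1 cell was not tested.

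*Itgb1* (chromosome 8, 128685654 to 128733200, plus strand) encodes β1, the partner of α1, α4, α5, α6, α7, α8 and α9 alike. It was found in 20 of 21 pericytes and 9 of 11 endothelial cells, and after thinning in 57.6% and 47.0%. Its pericyte level was 8.95 per 10000 (7.00 to 11.3) and its endothelial level 5.80 (3.44 to 9.16), a ratio of 1.54 (0.911 to 2.75). By plate it was 11.7, 11.4 and 7.24 in pericytes and 3.21, 4.46, 8.44 and 7.04 in endothelial cells, and the classes overlapped. Wells under 300 UMIs held 4.12 per 10000, and the endothelial level was 1.41 times that (0.788 to 2.40), an interval that includes equal levels.

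In order of pooled pericyte level the 10 ran *Itga1*, *Itgb1*, *Itga7*, *Itgav*, *Itgb5*, *Itga4*, *Itga6*, *Itga5* and, at 0, *Itga8* and *Itga9*. *Itga1* and *Itgb1* were apart from each other and from the rest by their intervals, and *Itga7* to *Itga4* were not apart from each other. In endothelial cells *Itgb1* and *Itga6* led and no neighbours in the order were apart. The other 16 subunits added 5 UMIs in all retained cells, 3 of *Itga10* and 1 each of *Itga3* and *Itgb3*, named after their counts were seen. The leukocyte chains *Itgb2*, *Itgam* and *Itgal* and the platelet chain *Itga2b* had 0. Of 6 fibroblast markers, *Pdgfra*, *Dcn* and *Lum* were at 0 in both classes, while the other 3, led by *Col1a2* with 89 UMIs, summed to 143 UMIs (17.8 per 10000) in 20 of 21 pericytes. *Acta2* of smooth muscle had 102 UMIs in pericytes. Of 13 macrophage markers, pericytes of *Gpr124* fl/fl held 0 UMIs and those of *Gpr124* ∆EC/∆EC 17, led by *C1qc*, with 12 of the 17 in 1 cell. Of 6 erythroid markers, the 3 endothelial cells of the second *Gpr124* fl/fl plate held 233 UMIs, led by *Hba-a2*, those of the first *Gpr124* fl/fl plate 0, and those of the *Gpr124* ∆EC/∆EC plates 3. Their part in the integrin levels was not tested.

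**Figure D2:**
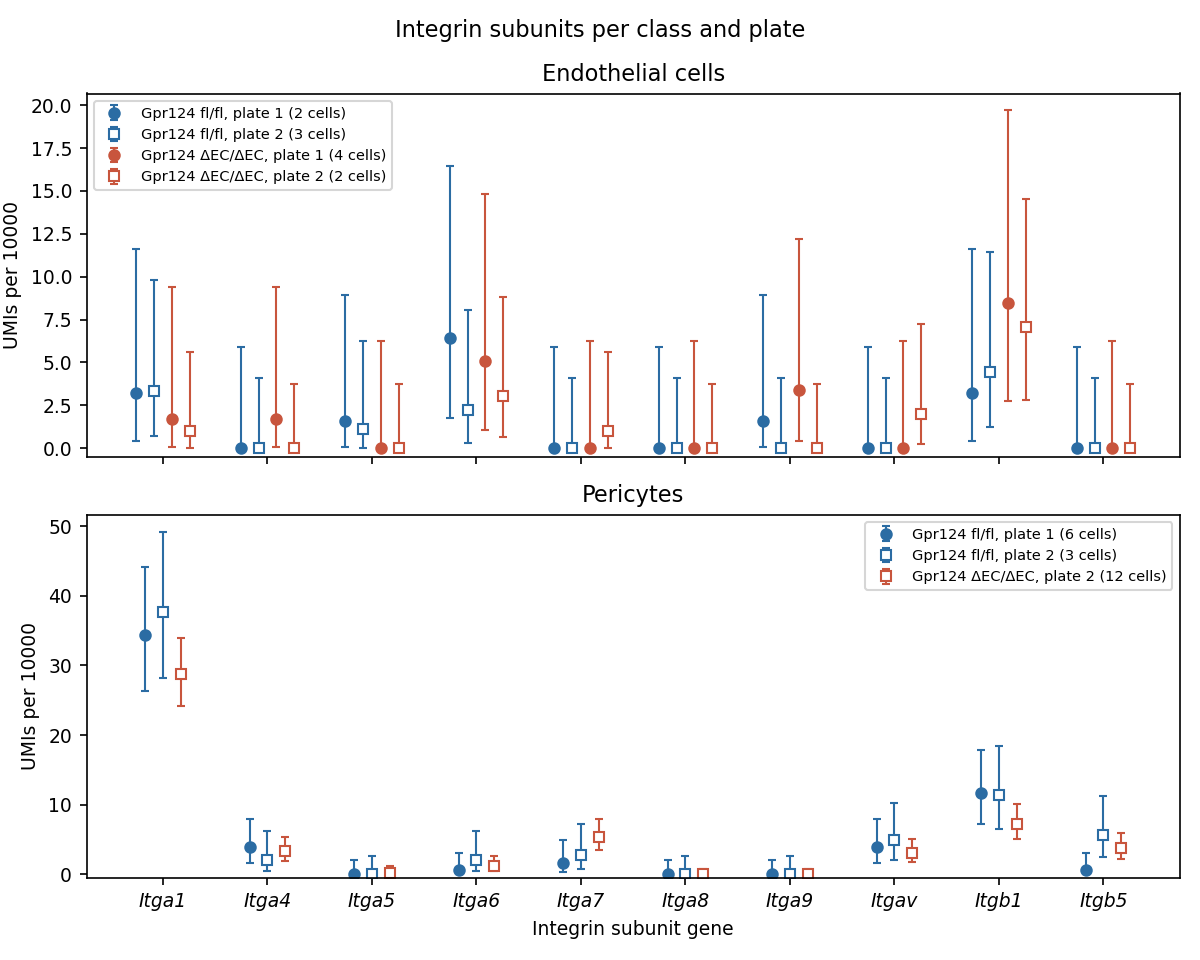
UMIs per 10000 of the 10 subunits (vertical axes, with different ranges) in endothelial cells (top) and pericytes (bottom), 1 point per plate, with exact 95% Poisson intervals as bars. *Itga1* lies between 28.7 and 37.6 in the pericyte plates and between 1.01 and 3.35 in the endothelial plates.

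Genotypes were set side by side within each class to ask whether the subunits differed when endothelial *Gpr124* was deleted. With 1 suspension per genotype there is no replicate check and no test. In pericytes *Itga1* was 35.8 per 10000 (29.6 to 43.0) for *Gpr124* fl/fl against 28.7 (24.2 to 33.9) for *Gpr124* ∆EC/∆EC, a ratio of 1.25 (0.965 to 1.61). Single cells overlapped fully, at 12.8 to 52.9 with a median of 40.5 for *Gpr124* fl/fl against 4.72 to 76.6 with a median of 27.0 for *Gpr124* ∆EC/∆EC. *Itgb1* was 11.5 and 7.24, a ratio of 1.59 (0.975 to 2.60). Both intervals include equal levels.

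Of the 7 subunits with at least 10 UMIs in pericytes, 1 was past a 2-fold difference, against 25.7% of 1915 genes with that many UMIs in either direction, 13.1% higher in *Gpr124* fl/fl and 12.6% higher in *Gpr124* ∆EC/∆EC. That share is near the background and is no result about integrins. The 1 gene was *Itga7*, at 2.18 per 10000 in *Gpr124* fl/fl (7 UMIs in 4 of 9 cells) and 5.38 in *Gpr124* ∆EC/∆EC (26 UMIs in 9 of 12 cells), a ratio of 0.405 (0.149 to 0.959). A single *Gpr124* ∆EC/∆EC cell held 8 of the 26, and it was also the cell with the most smooth muscle marker UMIs (20) of all 32. With the largest cell of each class and genotype left out the log2 ratio went from -1.30 to -0.97, with classes taken from summed markers to -0.79, without the first *Gpr124* fl/fl plate to -0.92, and just inside 2-fold with no scaling between plates. In these 4 alternatives it was no longer past 2-fold. *Itga4* (0.941), *Itgav* (1.41) and *Itgb5* (0.753) had ratios whose intervals include 1, as did *Itga6*, with 4 and 6 UMIs. The log2 ratio of *Itgb5* (-0.41) went to -2.75 without the second *Gpr124* fl/fl plate and to 0.61 without the first, so it has no settled direction.

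Without the 10 cells whose barcode was shared with a deep well, pericytes held 29.8 *Itga1* UMIs per 10000 and endothelial cells 2.61, a ratio of 11.4 (4.78 to 35.6). The *Itga1* ratio of genotypes in pericytes was 1.17 (0.845 to 1.62). *Itga4* fell to 1.87 per 10000 in pericytes, on 10 UMIs, its ratio to endothelial cells to 3.58 (0.510 to 156), and its ratio of genotypes went from 0.941 to 2.30 (0.544 to 11.1), a change of direction. *Itga7* fell to 2.81 per 10000 in pericytes, and its genotype ratio was 0.383 with an interval that includes 1 (0.0693 to 1.42), so its difference between genotypes was not apart from counting error in these cells. The pericyte ratio of *Itgb5* was 1.06 (0.400 to 2.68).

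**Figure D3:**
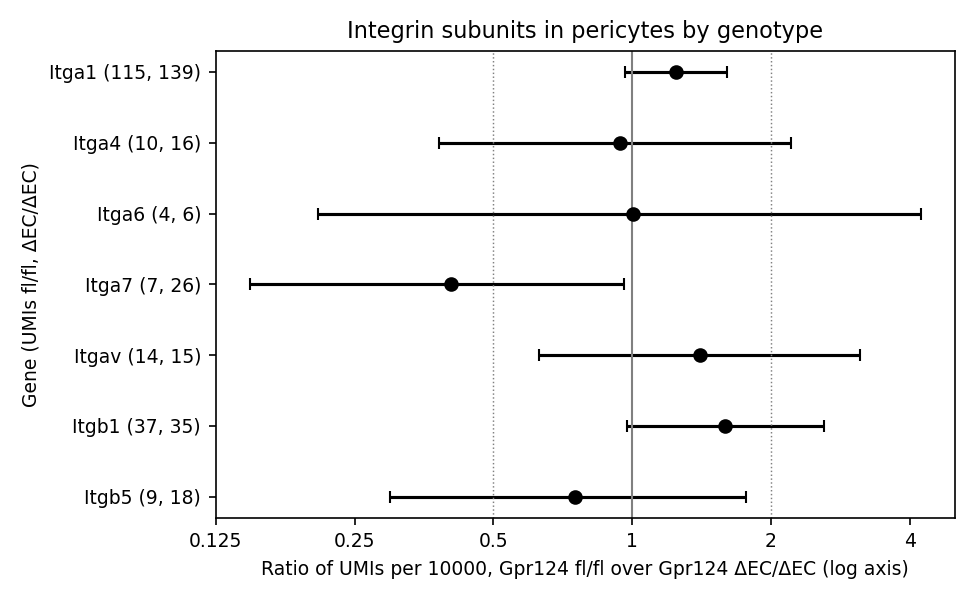
Ratio of UMIs per 10000 in pericytes, *Gpr124* fl/fl over *Gpr124* ∆EC/∆EC (horizontal log axis), for the 7 subunits with at least 10 UMIs, with exact 95% intervals for counting error, UMIs of each genotype beside the gene, a solid line at 1 and dotted lines at 0.5 and 2. *Itga7*, at 0.405, is the only point outside the dotted lines.

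In endothelial cells *Itga6* and *Itgb1* had at least 10 UMIs, and in the main analysis neither passed 2-fold, against 30.5% of 538 genes. *Itga6* had 6 UMIs in each genotype, a ratio of 1.04 (0.279 to 3.91). *Itgb1* had 6 for *Gpr124* fl/fl against 12 for *Gpr124* ∆EC/∆EC, which was 1.91 times higher (0.665 to 6.22), with 6 of the 12 in 1 cell. Between the same groups the endothelial marker sum was 85.6 per 10000 for *Gpr124* fl/fl and 130 for *Gpr124* ∆EC/∆EC. The erythroid sum was 153 and 1.89. Their part in the integrin ratios was not tested. The *Itgb1* ratio passed 2-fold in 5 of the alternative analyses. The log2 ratio of *Itga6* (0.06) changed sign with the plate left out and in other alternatives, such as the largest cells left out (-0.36). Without the 10 cells of shared barcodes it was -0.74. That of *Itgb1* (-0.94 in the main analysis) was then -0.42. *Itga1* had 5 and 2 UMIs, a ratio of 2.61 (0.428 to 27.4).

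Matrix ligands and adhesion genes were compared between the classes over the 7 sums per class and plate with the quasi-likelihood test of edgeR and Benjamini-Hochberg adjustment. The 7 sums come from only 2 suspensions, so plates of 1 suspension stand as replicates, and the p values do not cover differences between suspensions. The lists were chosen with earlier results of these data known, so these p values and shares are a description and not independent support. Of 98 genes in the 5 lists of other subunits, basement membrane ligands, other ligands, cytoplasmic adhesion genes and membrane partners, 4 passed the expression filter. All 3 genes of the basement membrane list that were tested were higher in pericytes, against 24.3% of the 148 genes tested in that direction, 10.1% in the other and 34.5% in both. Their median log2 difference was 1.40, and that of all 148 genes was -0.02. *Col4a1*, a collagen IV chain and so part of the ligand of α1β1, was higher by a log2 difference of 1.40 (SE 0.29, edgeR's quasi-likelihood test with Benjamini-Hochberg, adjusted p = 1.16e-05). By plate it was 47.2, 69.5 and 65.1 per 10000 in pericytes and 27.3, 33.8 and 49.3 in 3 of the endothelial plates, with 9 UMIs in the second *Gpr124* fl/fl plate, so 1 endothelial plate lay above the lowest pericyte plate. *Nid1*, the linker of laminin and collagen IV, was higher by 1.44 (SE 0.33, edgeR's quasi-likelihood test with Benjamini-Hochberg, adjusted p = 8.11e-05) and did not overlap, at 17.8 to 24.8 in pericytes and 4.46 to 15.1 in endothelial cells. *Col18a1*, a collagen of vascular basement membranes that was not in the list and is named after its value was seen, went the other way, with a log2 difference of -5.88 (SE 0.97, edgeR's quasi-likelihood test with Benjamini-Hochberg, adjusted p = 1.88e-08). *Col4a2* was higher by 1.03 (SE 0.29, edgeR's quasi-likelihood test with Benjamini-Hochberg, adjusted p = 0.00220) with overlap, and was not called without the second *Gpr124* ∆EC/∆EC plate or without the cells of shared barcodes. The remaining gene, *Actn4*, an actin crosslinker named after its value was seen, was not called (log2 difference 0.51, edgeR's quasi-likelihood test with Benjamini-Hochberg, adjusted p = 0.364).

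Most ligands were too sparse for that filter and are given as pooled levels. In pericytes and endothelial cells, *Lama4* was 5.97 and 2.25 per 10000, *Lamb1* 7.08 and 0.644, and *Lamc1* 8.33 and 3.87, and of these 3 only *Lamb1* was called by the fit without a filter described below. *Fn1* was 2.11 and 0.644, on 17 and 2 UMIs. *Vtn*, the vitronectin gene, had 14 UMIs in pericytes and none in endothelial cells. Of the listed ligands of α4, α8 and α9, 4 were almost unseen, with 2 and 1 UMIs of *Vcam1*, 0 and 1 of *Npnt*, 1 and 0 of *Tnc* and 0 of *Spp1* in pericytes and endothelial cells. With no filter beyond 1 UMI, edgeR called 12 of 70 genes tested from the 5 lists, all higher in pericytes, beside 2.2% of 10829 genes tested in either direction. Beside the 3 above they were the collagens *Col1a2* and *Col3a1*, *Lamb1*, the αv ligand *Mfge8*, the adhesion genes *Fermt2* (a kindlin), *Vcl* (vinculin) and *Tns3* (a tensin), and the membrane genes *Cd63* and *Sdc2*, named after the call. Under the filter 34.5% of 148 genes were called, so the share depends on how sparse the genes are. The 12 of 70 is not read as an enrichment. No share by direction was computed for the unfiltered fit. Pericytes held 80460 UMIs and endothelial cells 31048, and the part of this depth in the direction was not tested. In endothelial cells *Col4a1* was 17.1 per 10000 for *Gpr124* fl/fl against 43.5 for *Gpr124* ∆EC/∆EC, a ratio of 0.394 (0.241 to 0.626), beside 30.5% of genes past 2-fold in this class. By direction, 17.8% of the 538 genes were higher in *Gpr124* ∆EC/∆EC and 12.6% higher in *Gpr124* fl/fl. The *Gpr124* fl/fl plates held 17 UMIs in 2 cells (27.3 per 10000) and 9 in 3 cells. The latter was the plate with the erythroid UMIs. The *Gpr124* ∆EC/∆EC plates reached 33.8 and 49.3 per 10000. How far the ratio depends on the plate with the erythroid UMIs was not tested. In pericytes *Col4a1* was 57.0 per 10000 for *Gpr124* fl/fl and 65.1 for *Gpr124* ∆EC/∆EC, a ratio of 0.875 (0.725 to 1.05).

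The genes whose sums followed *Itga1* most closely were *Cald1*, *Meg3*, *Aspn*, *Mgp* and *Cryab*, with Pearson r of 0.99, 0.98, 0.98, 0.98 and 0.98 over the 7 sums of log2(UMIs per 10000 + 1) among 617 genes with at least 30 UMIs. The sums share plates, and r mostly reflects the 2 classes. *Cald1*, an actin-binding gene of contractile cells, was 20.5 to 23.9 per 10000 in pericytes and 3.02 to 5.58 in endothelial cells. *Itgb1* ranked 175 by the same measure, with r of 0.58.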

How the data were processed

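Single cells of 1 suspension per genotype were sequenced by SORT-seq in 4 plates. Per the submitters' processing notes, reads were aligned to GRCm38 with STARsolo 2.7.11b. Each well's values are expected counts, which the authors deposited unscaled. Whether the counting used strand was not given in the sources used here.

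Totals without spike-ins were scaled to the highest plate median for the filter only, and before summing each value was rounded to a whole UMI. Classes followed *Cldn5* and *Pdgfrb*. Wells with both markers were left out, and doublets were not called in so few cells. Intervals are exact Poisson, Clopper-Pearson and conditional binomial at 95%, and the floor is 3 UMIs over a group. Genotype ratios divide the *Gpr124* fl/fl level by that of *Gpr124* ∆EC/∆EC. Sums per class and plate were fitted with edgeR 4.0.16 (glmQLFit, TMM, filterByExpr, Benjamini-Hochberg over all genes tested, R 4.3.3, limma 3.58.1), with DESeq2 1.42.0 as an alternative. The fit was also run on simulated data, and no result of that run is used here. Thinning drew 1000 UMIs per cell 100 times. Gene positions are from the GENCODE annotation of GRCm38. Other steps ran in python 3.11.15 (matplotlib 3.10.9, scipy 1.17.1, pandas 2.3.3, numpy 2.4.6).

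The members and lists were chosen with earlier results of these data known. Named genes are the 10 subunits, other subunits with at least 10 UMIs (there were none), list genes with at least 30 UMIs called by edgeR at an adjusted p under 0.05 (at most 5 per direction and list), 11 ligands (*Col4a1*, *Col4a2*, *Lama4*, *Lamb1*, *Lamc1*, *Fn1*, *Npnt*, *Vtn*, *Vcam1*, *Spp1*, *Tnc*) and the 5 genes most like *Itga1*. The marker lists were endothelial, pericyte, smooth muscle, macrophage, platelet, erythroid, fibroblast, lens, astrocyte and melanocyte genes. In the retained cells the platelet list had 1 UMI, the melanocyte list 2, and the lens and astrocyte lists 0.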

Additional observations from a re-analysis of the deposited data

How the results depend on the processing

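Among the limits, 11 endothelial cells with 31048 UMIs in all cannot show subunits below about 0.966 per 10000, and 1 suspension per genotype gives no spread between animals. The alternatives were no scaling between plates, spike-ins counted in totals, mitochondrial limits of 5% and 20%, other UMI limits, unrounded values, classes from marker lists, equal weight per cell, the largest cells left out, thinning, and each plate left out. The log2 ratio of *Itga1* between pericytes and endothelial cells (3.81) was never under 3.64 over 11 of these and ranged from 3.66 to 4.06 without 1 plate. Its log2 ratio of *Gpr124* fl/fl to *Gpr124* ∆EC/∆EC in pericytes (0.32) ranged from 0.22 to 0.39, and without 1 plate from 0.26 to 0.39. Without the second *Gpr124* ∆EC/∆EC plate no pericyte ratio could be had. The signs for *Itga4* (-0.79 to 0.54) and *Itgb5* (-0.91 to 0.59) in pericytes changed with the setting, and *Itgb5* fell to -2.75 without the second *Gpr124* fl/fl plate and stood at 0.61 without the first. In endothelial cells *Itgb1* (-0.94) ranged from -2.01 to -0.36 and passed 2-fold in 5 alternatives (mitochondrial limits of 5% and 20%, marker lists, and without the second plate of either genotype), and *Itga6* went from -0.76 to 0.76 without 1 plate. *Itga7* ranged from -1.62 to -0.79, and from -1.69 to -0.92 without 1 plate, and it lost its 2-fold difference in 4 alternatives (no scaling, marker lists, the largest cells left out, and without the first *Gpr124* fl/fl plate).

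The 3 list genes called between classes became 12 with no filter beyond 1 UMI, where 70 and not 4 list genes were tested, and 2 to 4 without 1 plate, *Col4a2* being lost without the second *Gpr124* ∆EC/∆EC plate. With the plate as a replicate block 3 were called, the same genes. All genes called numbered 51, and 238 with no filter and 32 without the second *Gpr124* ∆EC/∆EC plate. The remaining planned counts lay within 1.5 times.

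Leaving out the 10 cells whose barcode held at least 1000 scaled UMIs in another plate was added after seeing the data. The *Itga1* log2 ratio between classes was then 3.51 and that of genotypes in pericytes 0.23. *Itga4* went from -0.09 to 1.20 between genotypes in pericytes. Of the list genes *Col4a1* and *Nid1* were called, 2 in place of 3, and of all genes 23 in place of 51.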
